A study of Anopheles gambiae with 15 samples.

Results

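The results below concern 98 mosquito probe sets that were brighter in whole larvae of the malaria mosquito Anopheles gambiae than in any of 4 dissected sections of the larval gut. They make up 0.580% of the 16884 probe sets whose identifiers start with Ag. Each had a whole-larva mean at least 2 log2 units above every section mean, and its 4 section means, once sorted, showed no gap between neighbours that reached 1 log2 unit. The members were thus chosen by their group means in the same section and whole-larva arrays whose values are given below, so those values describe the set and test nothing about it. All larvae were 4th instar animals of the G3 strain, reared on baker's yeast and ground fish flakes and given no experimental treatment. The groups, each of 3 arrays, were the gastric caeca, the anterior midgut, the posterior midgut, the hindgut together with the Malpighian tubules, and the whole larva. Each section sample pooled tissue from 1000 dissected guts, and each whole-larva sample pooled 200 animals. The labels call the repeats biological, and each array is 1 pool, so the spread between arrays is the spread between pools and not between animals. The whole-larva samples contain the gut as well, and the foregut is not among the sections the labels name. In such bulk RNA, fewer cells of a type and less RNA per cell cannot be told apart.

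A mosquito larva carries, outside its gut, an epidermis that secretes the cuticle, segmental muscles, a fat body that stores and secretes proteins and lipids, a nervous system with the sense organs of the head, and tracheae. The gastric caeca and midgut take up nutrients and secrete digestive enzymes, and the hindgut and Malpighian tubules handle ions, water and waste. The gut wall also bears its own muscle, nerves and tracheal branches, so a transcript of those tissues need not be missing from a dissected gut. The identifiers in the deposited table are not paired with genes there, and none matched the 15165 genes of the RefSeq table for this species. The members are therefore given by identifier, with no gene name or role, and the markers of muscle, cuticle, fat body or gut could not be looked up to check what each sample held.

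The values were log2 intensities that ran from 3.13 to 14.4. Over the Ag probe sets, arrays of 1 group correlated at 0.979 to 0.984 for the caeca, 0.977 to 0.982 for the posterior midgut, 0.981 to 0.987 for the hindgut, 0.927 to 0.947 for whole larvae and 0.871 to 0.963 for the anterior midgut. Whole-larva arrays correlated with section arrays at 0.740 to 0.922. Anterior midgut array 2 had the narrowest spread of values, with an SD of 1.40 against 1.59 to 1.85 on the other arrays. Applying the rule without that array gave 101 members, 96 of them among the 98. The table holds no detection calls, so a background was taken from the 290 rows whose identifiers start with a number, which the labels do not define. Their 95th percentile was 5.36 in the caeca, 5.83 in the anterior midgut, 5.56 in the posterior midgut and 5.31 in the hindgut. A fold against a section mean within that background is given below as a lower bound, with the background in place of the mean.

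The lead of a member is its whole-larva mean minus its highest section mean. The median lead was 2.60 log2 units, or 6.05-fold, with quartiles of 2.20 and 3.20 and a highest value of 6.87. The median over all probe sets tested was -0.28. Leads were crowded near the limit, with 47 members under 2.5, while 31 members led by at least 8-fold, 10 by at least 16-fold and 4 by at least 32-fold. With every section mean set no lower than its background, the median lead was 2.18 log2 units, or 4.53-fold. On that footing 63 members led by at least 4-fold, 20 by at least 8-fold, 6 by at least 16-fold and 2 by at least 32-fold.

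The largest lead belonged to Ag.2R.18.0_CDS_at. Its whole-larva arrays read 12.50, 11.72 and 11.84. Its caeca arrays read 4.89, 4.84 and 4.98, and its anterior midgut arrays 4.87, 4.91 and 5.02. All 12 section arrays lay close together and far below the 3 whole-larva arrays, with the posterior midgut at 5.08, 5.23 and 5.15 and the hindgut at 4.27, 4.64 and 4.27. All 4 section means were within background, so the sections have no order here. Against whole larvae the signal was at least 101-fold lower in the caeca, at least 73.1-fold in the anterior midgut, at least 88.1-fold in the posterior midgut and at least 105-fold in the hindgut.

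The next largest lead was that of Ag.2R.1003.0_CDS_at, at 12.01, 11.51 and 11.42 on the whole-larva arrays. It read 5.56, 5.07 and 5.95 in the caeca and 5.57, 5.67 and 5.11 in the anterior midgut. It read 5.46, 4.88 and 4.91 in the posterior midgut and 6.22, 5.63 and 5.62 in the hindgut. The caeca and hindgut means were above background, and the signal there was 69.5-fold and 56.5-fold lower than in whole larvae. In the caeca the mean was only 5.52 against a background of 5.36, and array 2 lay within it, so that fold rests on values near background. The midgut means were within background. The signal there was at least 56.3-fold lower in the anterior and at least 67.9-fold lower in the posterior midgut. By the deposited means, these same probe sets had the largest falls of all members in each of the 4 sections.

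**Figure D1:**
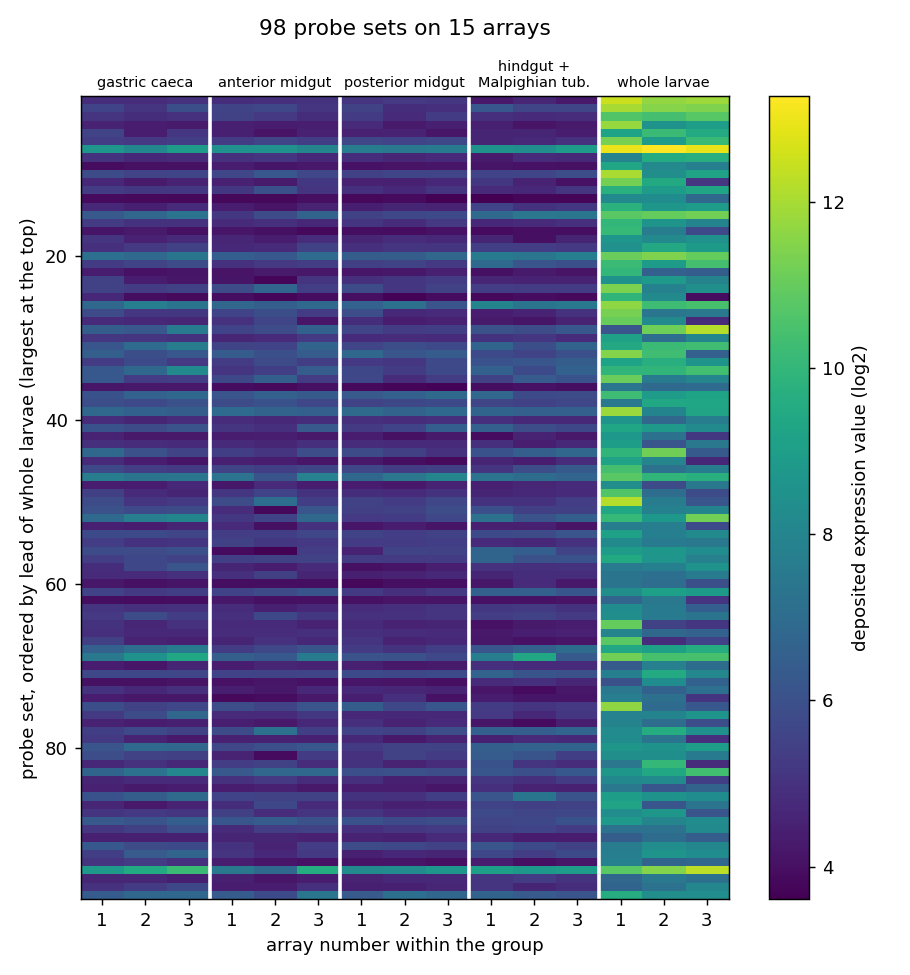
Log2 intensity of the 98 members (rows, ordered by lead) on the 15 arrays (columns, by group), as a colour scale. The 3 whole-larva columns are brighter than the 12 section columns for most members, and whole-larva array 1 is the brightest in 57 of them.

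The median member stood at 8.43 in whole larvae, against 5.27 in the caeca, 5.01 in the anterior midgut, 5.03 in the posterior midgut and 5.15 in the hindgut. Over all Ag probe sets the group medians were 5.14 in whole larvae and 5.08, 5.15, 5.09 and 5.02 in the sections in the same order, so in the sections the median member was close to the median probe set. Member means ranged from 6.43 to 13.06 in whole larvae, from 3.86 to 9.52 in the caeca, from 3.88 to 8.34 in the anterior midgut, from 3.77 to 8.39 in the posterior midgut and from 3.71 to 8.90 in the hindgut. The median difference from whole larvae was -2.85 in the caeca, -3.09 in the anterior midgut, -3.22 in the posterior midgut and -2.95 in the hindgut, on the log2 scale, with section values within background taken as deposited.

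A low value is not the same as no signal. By the background from the number rows 51 members were within background in the caeca, 73 in the anterior midgut, 74 in the posterior midgut and 52 in the hindgut. In all 4 sections at once 46 members were within it, 35 were above it in some sections, and 17 were above it in every section. The 4506 rows whose identifiers start with Pf are not defined in the labels either, and gave a lower 95th percentile, from 4.00 to 4.10 in the sections. Only 1 member lay below that in all 4 sections, and 90 lay above it in all 4. Most members thus cannot be called absent from the gut by both measures, and the set is better named by its rule, as probe sets whose deposited means were at least 4-fold lower in every section than in the whole larva.

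At the other end, 11 members had a section mean above 7. The member with the highest section mean was Ag.X.5.0_CDS_a_at, which read 8.85, 9.51 and 10.20 in the caeca and 10.80, 11.47 and 12.32 in whole larvae. Its anterior midgut arrays read 7.47, 6.90 and 9.59, its posterior midgut arrays 8.18, 8.28 and 8.70, and its hindgut arrays 9.05, 8.75 and 8.90. The whole-larva arrays were the 3 highest of the 15, with the brightest caeca array not far below. Next came Ag.UNKN.848.0_CDS_s_at, at 12.97, 13.28 and 12.94 in whole larvae and 8.69, 8.13 and 8.93 in the caeca. It read 8.49, 8.51 and 8.0 in the anterior midgut, 7.66, 7.49 and 7.56 in the posterior midgut and 8.56, 8.36 and 8.95 in the hindgut. Every section array of that probe set was well above both backgrounds, and its whole-larva mean was still 21.8-fold above its highest section mean.

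**Figure D2:**
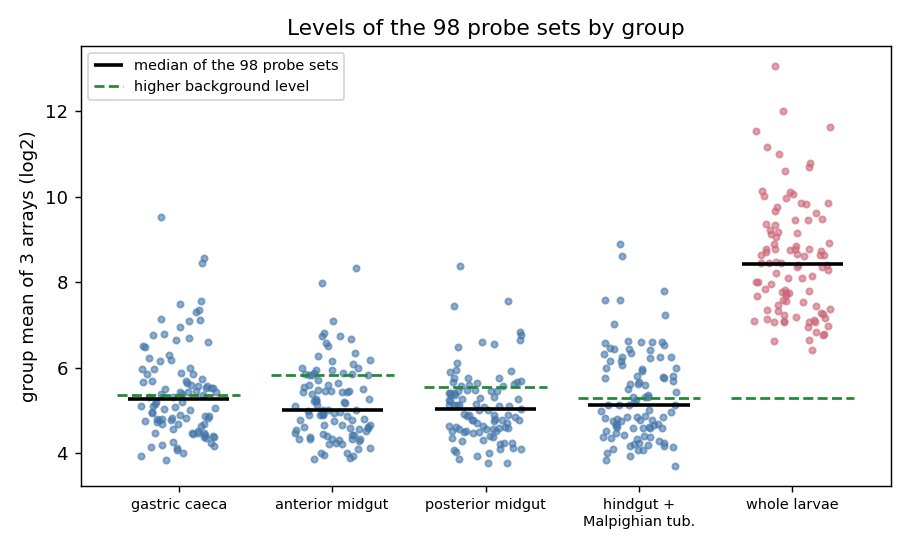
Group means of the 98 members (log2 intensity, points) in the 4 sections and in whole larvae, with black lines at the median of each group and dashed lines at the higher background, the 95th percentile of the rows with number identifiers. Whole-larva points lie between 6.43 and 13.06, and section points reach 9.52, with part of them below the higher background in each section.

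Since no gap of 1 log2 unit was allowed, the sections could differ only moderately in a member. The median range over the 4 section means was 0.62, from 0.13 to 2.52, and 39 members had a range under 0.5. The caeca were the highest section in 33 members (33.7%, against 13.6% of all Ag probe sets) and the hindgut in 34 (34.7%, against 29.9%). The anterior midgut was highest in 16 (16.3%, against 38.5%) and the posterior midgut in 15 (15.3%, against 18.0%). The lowest section was the posterior midgut in 39 members (39.8%, against 14.2%), the hindgut in 31 (31.6%, against 44.1%), the anterior midgut in 18 (18.4%, against 27.3%) and the caeca in 10 (10.2%, against 14.3%). Values within background have no order, and this holds for the shares of all Ag probe sets too. Their median was within background in each section, in the anterior midgut at 5.15 against 5.83. Of the members, 52 had a section mean above background. Of these, 24 were highest in the hindgut, 18 in the caeca, 6 in the posterior midgut and 4 in the anterior midgut. The posterior midgut was lowest in 26. These ranks used the deposited means, and 35 of the 52 still had some sections within background, where values have no order. Only 17 were above it in every section. By deposited means, the highest section was the caeca or the hindgut in all 24 members with a section range of at least 1. In 22 of them the lowest was the posterior or the anterior midgut.

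Between sections, limma called 3 members between caeca and anterior midgut and 7 between caeca and posterior midgut, all higher in the caeca, at an adjusted p under 0.05 and at least 2-fold. The same thresholds called 4.63% and 2.45% of all Ag probe sets in these contrasts. Between hindgut and anterior midgut 6 members were called, and between hindgut and posterior midgut 8, all higher in the hindgut, with backgrounds of 15.1% and 9.99%. Between caeca and hindgut 2 members were called, 1 in each direction, where 8.48% of all were. None was called between anterior and posterior midgut, where 3.23% were. As shares of the 98, the members stood at 7.14% between caeca and posterior midgut, above the background of that pair. In the other 5 pairs their share was below the background, from 0% to 8.16%. In all 14 members (14.3%) were called in at least 1 pair, against 18.5% of all Ag probe sets. The rule used these section means and capped their gaps, so the shares are a description in either direction.

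The members were less even between the whole-larva pools than within the sections. Section levels were lower and many were within background, so this contrast is not matched for level. The SD over the 3 whole-larva arrays had a median of 0.78, from 0.16 to 3.28, while the median SD within a section was 0.19 in the caeca, 0.25 in the anterior midgut, 0.15 in the posterior midgut and 0.20 in the hindgut. For the 3700 Ag probe sets with a whole-larva mean of at least 6.43, the lowest among the members, the median whole-larva SD was 0.43. An SD of at least 1 was found in 39 members (39.8%) and in 11.4% of those 3700. The rule takes a mean, so a probe set that is high on a single pool can meet it, and no test of this difference was made.

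Whole-larva array 1 was the highest of the 3 for 57 members (58.2%, against 27.9% of the 3700). Array 2 was the highest for 24 and array 3 for 17, and array 3 was the lowest for 41. The median member read 9.14 on array 1, 8.28 on array 2 and 7.99 on array 3, whereas the median of the 3700 was 7.62, 7.90 and 7.71. A lead of at least 2 held on array 1 for 81 members, on array 2 for 72 and on array 3 for 60, whatever the other arrays read. It held on all 3 arrays for 36 members, on 2 arrays for 43 and on 1 array for 19. Recomputing the rule without array 1 gave 93 members, of which 68 were among the 98. Without array 2 it gave 114, including 82 of the 98, and without array 3 it gave 147, including 89. Of the 98, 50 met the rule whichever whole-larva array was left out.

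The widest range belonged to Ag.3L.2098.0_CDS_s_at, at 11.04, 8.18 and 4.80 on the whole-larva arrays. The third of those values lay below its highest section mean, 4.93. Next was Ag.2L.1678.1_at, at 11.25, 9.46 and 5.14, with section means between 4.52 and 4.67. In all, 5 members had 1 whole-larva array below their highest section mean, on array 3 in 4 of them and on array 1 in the other. By contrast Ag.3R.786.0_CDS_at, chosen after its values were seen as the steadiest of the members with large leads, read 10.63, 10.43 and 10.75 in whole larvae. Its 4 section means were within background, with lower bounds on the fold from 27.4 in the anterior midgut to 39.3 in the hindgut.

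The 29 members with a whole-larva SD under 0.5 and the 39 with an SD of at least 1 are set side by side here by their section values, with no test. Among the steady members the highest section mean had a median of 5.98 and 11 were within the higher background in every section. Among the variable members that median was 5.10 and 22 were within it. By deposited means the steady members had the wider spread over sections, with a median range of 0.99 against 0.53. These ranges include means within background, which were more common among the variable members, so they are not matched for level. Array 1 was the highest whole-larva array in 11 of the 29 and in 29 of the 39.

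**Figure D3:**
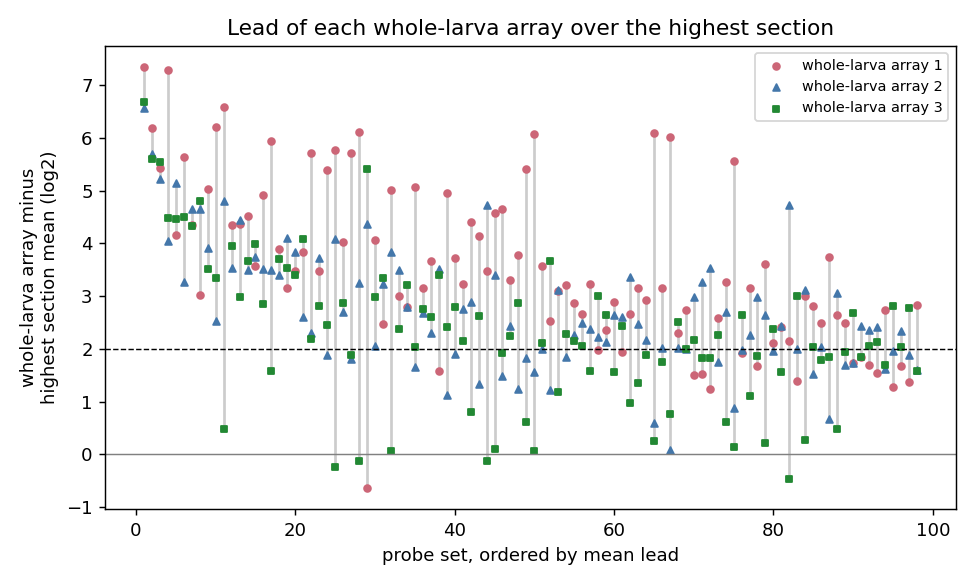
Lead of each member over its highest section mean (log2, vertical axis) on each of the 3 whole-larva arrays, with members ordered by mean lead on the horizontal axis and a line at 2. Array 1 has the largest median lead, 3.23, against 2.51 on array 2 and 2.18 on array 3, and single arrays fall below 0 for 5 members.

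The study's design text asks for transcripts enriched in a section over whole larvae by t-tests. The members are probe sets that run the other way, and limma, fitted to all 16884 probe sets with Benjamini-Hochberg adjustment, called nearly all of them. It called 90 members lower in the caeca, where 3.9% of all probe sets were called lower. It called 92 lower in the anterior midgut (background 7.95%), 93 in the posterior midgut (5.17%) and 95 in the hindgut (4.05%). Lower in all 4 sections were 90 members and 1.79% of all probe sets. The fit shared 1 estimate of the spread over the 5 groups, while the members varied more between whole-larva pools than within sections. In fits of 1 section and whole larvae alone, 62 members and 1.01% of all probe sets were called lower in all 4. These counts follow from the rule and add no support to it. In the fit of all 5 groups, 8 members were not called in every section. Of these, 3 with a whole-larva SD of 2.60 to 3.28 were called in no section, as were 90.3% of all probe sets. They were Ag.3L.1661.0_CDS_s_at, Ag.2L.1917.0_CDS_at and Ag.3R.2057.0_CDS_s_at. Named after their values were seen, they read 10.99, 5.48 and 5.15, then 10.82, 4.89 and 5.56, then 7.46, 10.04 and 4.85 on the whole-larva arrays, so each set of pools spanned over 5 log2 units. Ranges did not overlap in 86 members, whose 3 whole-larva arrays all lay above all 12 section arrays, as they did in 3.46% of all probe sets.

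The methods' t-test at an unadjusted p under 0.05 and at least 2-fold called 80 members lower in the caeca, 78 in the anterior midgut, 80 in the posterior midgut and 77 in the hindgut, with backgrounds of 3.46%, 5.69%, 4.48% and 3.2%. After Benjamini-Hochberg adjustment it called 19, 7, 34 and 45 of them, with backgrounds of 0.575%, 0.113%, 1.05% and 1.22%. With 3 arrays against 3, an exact permutation test of a single probe set cannot give a two-sided p under 0.1.

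Members just inside and just outside the limit were close in value, by deposited means whether or not within background. The smallest leads inside it were those of Ag.X.1143.0_at, 4.01-fold, and Ag.2R.537.0_CDS_at, 4.02-fold. The first read 9.59, 8.37 and 8.36 in whole larvae and the other 6.71, 7.21 and 8.10. The largest leads outside it were those of Ag.3R.242.0_CDS_a_at, 3.99-fold, and Ag.2L.3243.0_at, 3.96-fold, with whole-larva values of 6.97, 9.09 and 7.42 and of 6.71, 6.56 and 4.31. The gap condition removed 31 of the 129 probe sets with a large enough lead. Their highest section was the hindgut in 17 and the caeca in 14, and their lowest was the posterior midgut in 20 and the anterior midgut in 11. Most of the 17, and most of the 11, shared the arm and number in their identifiers with others of the 31. The 14 highest in the caeca all differed in arm or number. Probe sets that share both are not independent. Counted once per arm and number, the hindgut was highest less often than the caeca. No probe set showed the mirror pattern of being at least 2 log2 units higher in every section than in whole larvae. At 1 log2 unit, 78 probe sets were higher in every section and 445 were higher in whole larvae than in every section. The whole-larva samples contain the gut, so the 2 directions are not alike by design.

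The identifiers carry an arm, a number and a suffix, and no source used here defines these fields. By arm field, 30 members were on 2L (30.6%, against 20.3% of all Ag probe sets and 21.6% of the 3700 bright in whole larvae). On 3R there were 24 (24.5%, against 18.8% and 20.0%), on 2R 22 (22.4%, against 26.3% and 29.8%), on X 10 (10.2%, against 8.31% and 8.11%) and on 3L 6 (6.12%, against 14.8% and 15.8%). A further 6 were marked UNKN, and their 6.12% lay below the 11.5% of all probe sets but above the 4.65% of the 3700. Identifiers with UTR made up 18 members (18.4%), against 4.68% of all probe sets and 11.1% of the 3700. Those with CDS made up 63 (64.3%), against 83.3% of all and 74.5% of the 3700. The suffix _a_at was on 39 members (39.8%, against 19.7% of all and 31.7% of the 3700), _s_at on 15 (15.3%, against 8.14% and 12.5%) and _at on 44 (44.9%, against 72.1% and 55.6%). In this chip maker's usage the first of these suffixes marks probes shared by transcripts of 1 gene and _s_at marks probes shared by different genes, so the signal of some members may be that of a family.

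The 98 members fell on 92 stems, a stem being the arm and number of an identifier, and 5 stems carried 11 members. All 11 were highest on whole-larva array 1. The CDS member of Ag.2L.918 read 11.37, 7.87 and 8.44, and its UTR member 11.79, 8.54 and 8.98. The members of Ag.3R.184 read 11.81, 7.97 and 9.25, and 12.05, 8.37 and 9.18. In both stems array 1 stood well above the others in each probe set. The CDS member of Ag.2R.308 read 11.62, 10.29 and 10.45, and its UTR member 10.02, 8.61 and 7.95. The CDS member of Ag.3R.204 read 8.80, 8.01 and 8.26, and its UTR member 7.40, 6.91 and 7.0. The 3 members of Ag.3R.347 read 9.29, 8.81 and 8.20, 9.41, 7.85 and 7.96, and 10.78, 9.92 and 9.73. These stems were picked because they recur, and members of 1 stem are not independent.

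A further 11 stems had numbers within 2 of another member's on the same arm field. They did not all follow each other. Ag.2L.2523.0_CDS_at read 10.81, 10.99 and 11.23 in whole larvae, whereas Ag.2L.2524.0_CDS_at read 6.14, 11.15 and 12.20 and Ag.2L.2526.0_CDS_at read 11.31, 7.41 and 7.48. The first was even over the pools, the next was low on array 1 and the last was high on array 1. Ag.3L.2099.0_CDS_s_at read 12.18, 7.67 and 6.17, in the same order of arrays as Ag.3L.2098.0_CDS_s_at above. Ag.2L.2761.0_CDS_at, at 8.62, 6.81 and 7.69, and Ag.2L.2762.0_CDS_s_at, at 11.29, 8.92 and 10.15, also shared their order.

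On 33 stems there were 42 partners, probe sets that share a stem with a member but did not meet the rule. Their leads are conditioned on that failure, since a partner that met the rule would be a member. Of these, 33 had a whole-larva mean above every section mean (78.6%, against 18.8% of all Ag probe sets), and 15 led by at least 1 log2 unit (35.7%, against 2.64%). The median partner lead was 0.66. In limma 13 partners were called lower in all 4 sections (31.0%, against 1.79% of all probe sets) and 20 in none. Without whole-larva array 3, 20 partners were called lower in all 4 sections, as were 2.51% of all probe sets. In whole larvae 20 of the 42 partners were dimmer than the dimmest member and 13 were within the higher background. Dimness was not the only departure. In 6 partners the hindgut mean stood above the next section by 1.06 to 2.61 log2 units. Named after their values were seen, Ag.2R.433.0_UTR_s_at averaged 10.38 in the hindgut and 10.50 in whole larvae (limma adjusted p = 0.89). Ag.2R.433.2_CDS_s_at averaged 7.72 and 8.44, though the UTR probe set of its identifier was a member with a lead of 3.89. Over the 15 arrays the correlation of a partner with its member had a median of 0.83 and exceeded 0.8 in 22, a description in which group differences and shared probes both count.

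The partner with the largest lead was Ag.3R.169.0_CDS_s_at, with whole-larva values of 12.81, 12.97 and 12.72. It read 8.10, 7.07 and 8.85 in the caeca and 7.97, 7.47 and 7.99 in the hindgut. It read 5.80, 4.80 and 6.88 in the anterior midgut and 6.33, 5.77 and 6.30 in the posterior midgut. The caeca and hindgut arrays lay above all 6 midgut arrays, and the whole-larva arrays lay above all of them. In limma it was 28.4-fold lower in the caeca (adjusted p = 2.4e-05), at least 129-fold in the anterior midgut, whose mean was at background (6.5e-07), 104-fold in the posterior midgut (9.5e-07) and 32.5-fold in the hindgut (9.4e-06). It met the lead condition and was left out by the gap between caeca or hindgut and midgut alone. The partner with the smallest lead, Ag.3R.538.1_CDS_a_at, read 4.40, 4.34 and 4.42 in whole larvae, 0.46 below its highest section mean. It was called in no section, with limma's adjusted p from 0.1 to 0.94. The stem with the largest member lead also had a partner that did not share it, Ag.2R.18.1_UTR_a_at, named after its values were seen. It read 4.98, 4.89 and 4.90 in whole larvae, within the higher background, and led its highest section mean by 0.05.

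**Figure D4:**
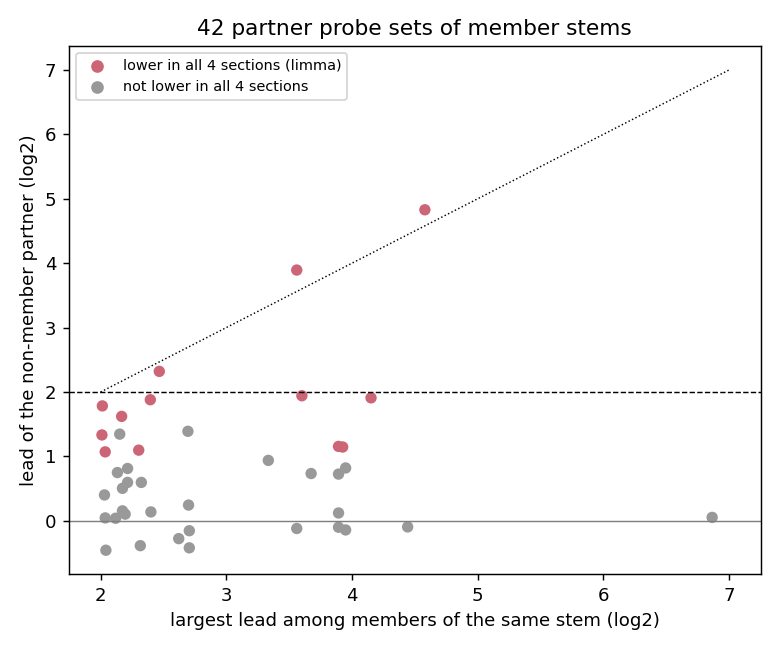
Lead of each of the 42 partners (log2, vertical axis) against the largest lead among the members of the same stem (log2, horizontal axis), with red points for the 13 partners that limma called lower in all 4 sections and grey points for the others. The dotted line marks equal leads, and of the points, 33 lie above 0 and 3 reach 2.

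In 14 UTR members a CDS probe set of the same identifier was on the array, and in 3 cases it was itself a member. The CDS lead was the smaller in 13 of the 14 (92.9%), and was so in 78.6% of all 678 such pairs. The median lead was 3.23 for the UTR members and 1.12 for their CDS probe sets, against -0.17 and -0.41 over all pairs. The UTR members had been chosen for a large lead and the CDS probe sets had not. The labelling control ratio, taken as the mean 3′ minus 5′ difference of the control probe sets, was 0.83 log2 units in the caeca, 0.90 in the anterior midgut, 0.96 in the posterior midgut, 0.93 in whole larvae and 0.08 in the hindgut, and its part in these leads was not tested.

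Averaged over the members, the profile read 9.23, 8.42 and 7.97 on the whole-larva arrays and 5.06 to 5.53 on the 12 section arrays. Single members correlated with that mean at 0.66 to 0.99 over the 15 arrays, with a median of 0.92. The probe sets most like it among the non-members were Ag.X.205.0_CDS_a_at, at a Pearson r of 0.974 and a lead of 1.94, and Ag.2R.1024.0_CDS_a_at, at 0.968 and a lead of 1.47. Only 6 non-members exceeded 0.95, against 34 members, which had formed the mean. With 15 arrays in 5 groups such a correlation mostly restates the whole-larva difference.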

How the data were processed

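RNA from 5 groups of 3 pools was hybridised to 1-colour arrays. The authors deposited log2 values. The submitters' processing notes name RMA with no version, a method that corrects background, normalizes quantiles and summarises probes, and that compresses differences at low signal. Of 22761 rows, 16884 with Ag identifiers were used as deposited. The members and lists were chosen with earlier results of these data known. The rule was applied to group means, and folds against a section mean within background were bounded as the results state. limma 3.58.1 in R 4.3.3 fitted a mean per group, with Benjamini-Hochberg adjustment within each contrast over all 16884 probe sets, and was tested on simulated data. A probe set was called at 2-fold or more with an adjusted p below 0.05. Probe sets were named by fixed criteria (extremes of lead, of fall in each section, of range over whole-larva arrays and of section level, neighbours of the limit, extreme partners, closest profiles), and others are said to be chosen after their values were seen. Same-numbered pools were checked for pairing: deviations of a section and of whole larvae correlated at 0.268 to 0.350 in the caeca and 0.172 to 0.257 in the posterior midgut, above 0.1 in each, but at -0.0368 to 0.159 in the anterior midgut and 0.0396 to 0.139 in the hindgut. Alternatives covered normalization, a filter on dim probe sets, group medians, the replicate block, array weights, the methods' t-test, fits on 2 groups and leaving out each array. Depth does not apply to arrays, and their number limits the precision.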

Additional observations from a re-analysis of the deposited data

Results flagged for a closer look

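Differences between sections were tested by limma on the difference itself, and each pair of sections with at least 1 called member is listed here. Between caeca and anterior midgut 3 members were called, and between caeca and posterior midgut 7, all higher in the caeca. Between caeca and hindgut 2 were called. Ag.3R.254.0_CDS_a_at was 2.08-fold higher in the hindgut (limma adjusted p = 0.0021), and Ag.2R.365.0_CDS_a_at was 2.31-fold higher in the caeca (0.041). Both were named because they are the 2 called. Between anterior midgut and hindgut 6 were called and between posterior midgut and hindgut 8, all higher in the hindgut. In the order given, the same thresholds called 4.63%, 2.45%, 8.48%, 15.1% and 9.99% of all Ag probe sets. Only between caeca and posterior midgut was the share of the members, 7.14%, above that background. The rule capped the gaps between section means, so these counts are a description.

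Outside the Ag probe sets, 2 of the 937 rows named by an accession met the same rule, with leads of 2.65 and 2.53. The first read 8.58, 7.73 and 9.03 in whole larvae with a highest section mean of 5.80, and the other 7.30, 4.23 and 7.21 with a highest section mean of 3.72. Of the 4506 Pf rows, the 290 rows with number identifiers and the 144 controls, 0 met it.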

How the results depend on the processing

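The rule gave 97 members after repeated quantile normalization (86 of the 98 shared), 87 after median centring (87 shared), 106 with group medians (74 shared) and 87 to 147 with 1 array left out, where 43 of the 98 met it in all 15 cases. In 2 alternatives added after seeing the data, 36 members led by 2 log2 units on all 3 whole-larva arrays and 46 were within the higher background in all sections. Members called lower ranged, with 1 array left out, over 81 to 93 in the caeca, 85 to 96 in the anterior midgut, 86 to 96 in the posterior midgut and 86 to 97 in the hindgut. In the same order, those fits called 3.21% to 5.05%, 6.21% to 10.5%, 4.36% to 6.28% and 3.36% to 4.71% of all Ag probe sets. With the replicate block the counts were 89, 93, 93 and 95, within 1.5 times of the main counts. The backgrounds there were 4%, 8.03%, 5.22% and 4.16%. Fits of 1 section and whole larvae alone called 67, 64, 71 and 77, with backgrounds of 2.67%, 3.17%, 3.64% and 3%. The methods' t-test with Benjamini-Hochberg adjustment called 19, 7, 34 and 45, with backgrounds of 0.575%, 0.113%, 1.05% and 1.22%. For partners lower in all sections the count was 13 in the main fit and with the replicate block, 10 to 20 with 1 array left out, 8 in fits of 1 section and whole larvae alone, and for the methods' t-test 10 unadjusted and 0 adjusted. Of all Ag probe sets, the main fit called 1.79% and the replicate block 1.88%, and fits with 1 array left out 1.46% to 2.51%. Fits of 1 section and whole larvae called 1.01%, and the t-test 1.4% unadjusted and 0.0533% adjusted. The cause of these changes was not tested. No named lead of at least 1 log2 unit changed sign. Of the recomputed leads of named probe sets, 663 shifted by less than 1 SD and 2 by more. The SD was the larger of those over the whole-larva arrays and over the arrays of the highest section. Crossing of the 2 log2 limit was not counted for them. Signal near background limits the section values.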
